A study of Homo sapiens with 4 samples.

Results

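BT-16, an established human cell line of the MYC subgroup of atypical teratoid/rhabdoid tumor (AT/RT-MYC), was described gene by gene before and after chemotherapy. Genes were included when at least 1 of the BT-16 libraries held 50 counts or more, which left 14037 of the 18449 genes in the deposited count table (76.1%). At the edge of this rule, 36 genes with 49 counts in the higher library (log2 ratios from -0.40 to 6.88) stayed out, and 76 genes with 50 counts (log2 ratios from -1.65 to 6.91) came in. The study sequenced RNA of BT-16 and of another line of this subgroup, CHLA-266, each without drugs and after a drug combination. Per the methods, treated cells were given 1 µM doxorubicin (doxo), then 5 µM etoposide (eto) and 1 µM vincristine (vin) at intervals of 24 h, and the survivors were left to regrow for about 35 days. Untreated cells received none of these drugs. There was 1 library of untreated and 1 of treated BT-16 cells. No difference below therefore has a replicate check, no *p* value is given, and intervals cover counting error only. The sample titles say only before or after treatment and give no day of harvest or growth state, so regrowth is known from the methods alone. A single cell line also limits the model, and RNA was taken from the cells that were left and not from the cells that were lost.

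AT/RT are malignant tumors of early childhood that arise after loss of SMARCB1, a core subunit of the SWI/SNF chromatin remodeler, and the MYC subgroup carries high *MYC* expression. Doxo and eto trap topoisomerase II on broken DNA, and vin keeps tubulin from building the spindle, so all 3 drugs strike dividing cells hardest. Genes for DNA synthesis are switched on by E2F factors, and genes for mitosis by B-MYB and FOXM1 with the MuvB complex, while the same MuvB core represses them in resting cells as part of the DREAM complex.

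The untreated library held 75087193 counts and the treated library 51489712 counts, and 16079 and 17815 genes had a count. The ratio of each gene is given as the log2 of treated over untreated counts after TMM scaling with 0.5 counts added, so that a value of 1 is 2-fold higher and -1 is 2-fold lower after treatment. A gene was called higher or lower when it passed 2-fold. Among counts from 1 to 20, 34.2% were odd in untreated and 21.6% in treated cells, where single reads would leave near-even shares of odd and even counts, and intervals are too narrow if paired reads were counted separately. *SMARCB1* RNA was present, with 1394 counts before and 981 after treatment (log2 ratio -0.25, 95% counting interval -0.37 to -0.13). Per kilobase of exon it stood below 22 of the other SWI/SNF genes in untreated cells, and RNA does not show whether the protein was made. *SMARCA4*, the remodeler's ATPase, had 59447 and 29429 counts, and *MYC* had 14275 and 6804 counts (log2 ratio -0.81, -0.86 to -0.77).

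Across all 14037 genes, 3228 were at least 2-fold higher (23.0% of genes tested) and 1992 at least 2-fold lower (14.2%) in treated cells, with a median log2 ratio of -0.11. The direction of the balance depended on how strongly genes were counted. Of the 5498 genes with fewer than 1000 counts, 2860 were higher and 358 lower, whereas of the 8539 genes with 1000 counts or more, 368 were higher (4.31%) and 1634 lower (19.1%), with a median of -0.40. Higher genes had a median of 111 counts in treated cells, and lower genes a median of 3314 counts in untreated cells. Among the higher genes, 282 had no untreated count at all. The scale itself moved these numbers. Library totals raised every log2 ratio by 0.29 and upper-quartile scaling by 0.40, and the higher share of all called genes went from 61.8% to 74.8% and 79.4%.

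**Figure D1:**
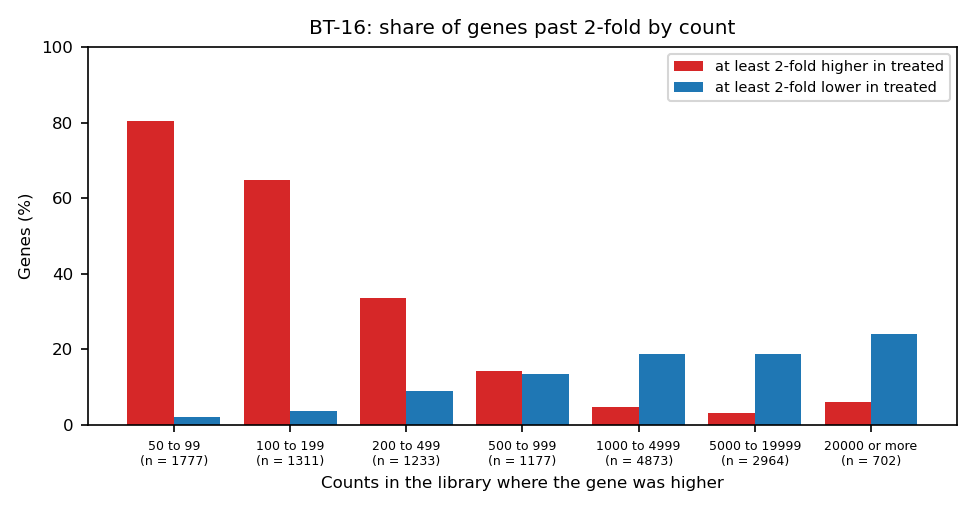
Share of genes in percent (vertical axis) that were at least 2-fold higher (red) or lower (blue) in treated BT-16 cells, by the number of counts in the library where the gene was higher (horizontal axis, number of genes in brackets). Of genes with 50 to 99 counts, 80.4% were higher and 2.08% lower, while of genes with 20000 counts or more, 5.98% were higher and 24.1% lower.

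A level at which silent genes were counted can be read from olfactory receptor genes, which serve smell in nasal neurons. Of 389 such genes, 124 had a count in untreated and 300 in treated cells, although the treated library was the smaller. Their median rose from 0 to 4.03 counts per kilobase of exon, and their 95th percentile from 4.10 to 26.2. Of the 3228 higher genes, 3217 had an exon length and 1344 stood above this percentile in treated cells. Of the 1992 lower genes, all 1985 with an exon length stood above it in untreated cells. The bar thus depended on direction. A gene with a ratio above 0 had to pass 26.2 counts per kilobase in treated cells, and any other gene only 4.10 in untreated cells. By construction this removes rises more readily than falls. Over the 11855 genes above this level, 11.3% were higher, 16.7% lower, and the median log2 ratio was -0.28, a balance that this rule shapes in part. Genes at or below it are named as such in what follows, and the part of the rise in these low counts in their ratios was not tested.

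The clearest feature of treated BT-16 cells was the loss of RNA for cell division. In the 6 lists on mitosis, DNA replication, nucleotide supply, and histones, 172 of 182 genes were lower and none was higher, with a median log2 ratio of -3.71. *MKI67*, the gene of the proliferation antigen Ki-67, had 109853 counts before and 1262 after treatment (log2 ratio -6.19, -6.27 to -6.11), or 72.9-fold fewer. The lowest ratio of any gene with 1000 counts or more belonged to *SGO1*, the shugoshin that guards sister chromatid cohesion at centromeres, with 1358 counts before and 3 after treatment (log2 ratio -8.35, -10.85 to -7.02). In a bulk library, fewer dividing cells and less of this RNA in each cell cannot be told apart. The methods describe the treated cells as regrown, and whether they were dividing at harvest was not tested.

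Mitotic genes fell as a body. Of 23 mitotic kinases and cyclins, 21 were lower, with a median of -4.81. Among them *MYBL2*, which encodes B-MYB, went from 13162 to 159 counts, *PBK* from 5339 to 70, and *PTTG1*, the securin that holds separase in check, from 6003 to 89. *CCNB1* (19069 and 1779 counts, log2 ratio -3.17) and *CDC20* (10245 and 2093 counts, -2.04) kept more of their RNA. The 2 genes of this list that were not called act on the timing of entry into mitosis. *WEE1*, the kinase that holds CDK1 inactive, had 9898 and 7757 counts (log2 ratio -0.10), and *CDC25B*, the phosphatase that frees it, had 15064 and 19595 counts (0.63, 0.60 to 0.66).

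Of 35 genes of the kinetochore and spindle, 33 were lower, with a median of -4.16. *CENPF*, a large protein of the outer kinetochore, went from 79485 to 1932 counts (log2 ratio -5.11), and *ASPM*, which focuses spindle poles, from 25564 to 605 (-5.14). *SKA1* and *SPC25*, which tie kinetochores to microtubules, had log2 ratios of -6.09 and -5.50. The motor gene *KIF11* fell far less, from 20893 to 7302 counts (-1.26). *KIF18A*, a kinesin that aligns chromosomes, was not called, with 6882 and 7323 counts (0.34, 0.30 to 0.39), and neither was *NUSAP1*, whose 71 and 32 counts were few in both libraries.

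All 16 genes of condensin and chromosome structure were lower, with a median of -4.54. *NCAPH*, the kleisin subunit of condensin, had 6788 and 50 counts (log2 ratio -6.82), while *INCENP*, the scaffold of Aurora B, kept the largest share of its RNA, with 10749 and 1606 counts (-2.49). DNA replication fell less steeply. All 41 genes of origin licensing and the replication fork were lower, with a median of -2.92, from *MCM10* (7649 and 244 counts, -4.71) and *GINS2* (2871 and 114, -4.39) to *TIPIN* (2240 and 828, -1.18). The abundant helicase subunits *MCM4* and *MCM3* had log2 ratios of -3.17 and -2.87.

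Of 20 genes of nucleotide supply, 16 were lower, with a median of -1.50. Other scales left as few as 11 lower and moved the median up to -1.10. *RRM2*, the regulated subunit of ribonucleotide reductase, went from 32304 to 651 counts (log2 ratio -5.38), and *DTYMK*, which makes the thymidine diphosphate, from 7159 to 532 (-3.49). *RRM2B*, the alternative small subunit that is under p53 control, had 12048 and 11527 counts (0.19), and *SAMHD1*, which degrades deoxynucleotides, had 4145 and 3016 (-0.20).

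Histone genes gave 13 of the 15 lowest ratios among genes with 1000 counts or more. These genes lie mostly in the clusters of chromosome 6, are copied only while DNA is made, and share near-identical copies, so the value of any single copy is uncertain. Of 47 replication-dependent histone genes with 50 counts or more, 45 were lower, with a median of -5.08. *H1-5*, a linker histone gene, had 50017 and 130 counts (log2 ratio -8.33, -8.59 to -8.08), and *H2AC4* had 5831 and 16 (-8.21). *H3C11* had 158 counts before and none after treatment, at least 44.1-fold lower against a floor of 3 counts. *H2AC6* (6304 and 3990 counts, -0.40) and *H2BC21* (4550 and 2186, -0.80) were not called, and *H2BC12* was the best kept of those that were (20255 and 7392 counts, -1.20). Histone genes that do not depend on replication fell too, 9 of 11 with a median of -1.77, among them *CENPA* of centromeric chromatin (1758 and 55 counts, -4.73) and *MACROH2A2* (-1.46). *H3-3B* (19167 and 8141 counts) and *H2AJ* (2393 and 1776, -0.18) stayed within 2-fold.

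**Figure D2:**
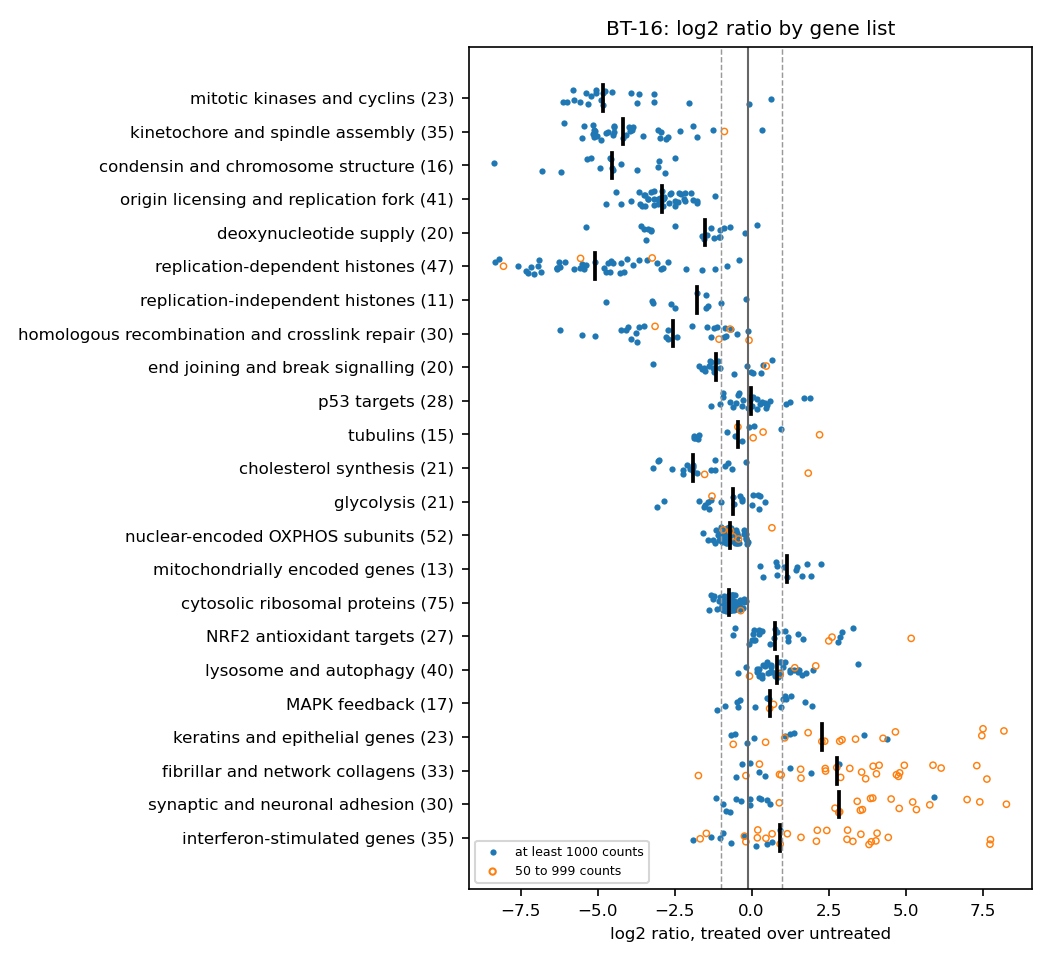
Log2 ratio of treated over untreated counts (horizontal axis) for the genes of 23 lists (rows, number of genes in brackets), with filled points for genes with 1000 counts or more and open points for fewer. Black bars are list medians, the solid line is the median of all genes at -0.11, and dashed lines mark 2-fold. The division lists at the top lie to the left with filled points, while the collagen, adhesion, and keratin lists reach far to the right mostly with open points.

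Promoter sequences show what these genes shared beyond their ratios. RefSeq promoters on GRCh38.p14, from 250 bases before to 50 after the start of transcription, were matched for 14642 genes of the table, and motifs were searched on both strands. The CHR element (TTTGAA or TTCGAA), through which MuvB complexes act, was held by 25 of 32 kinetochore and spindle promoters (78.1%) and by 12 of 14 condensin promoters (85.7%), against 13.4% of all 14642. In the mitotic kinase and cyclin list it stood in 8 of 17 (47.1%). Only 2 of 35 licensing and fork promoters held it (5.71%). In these promoters an E2F site (TTTCCCGC, TTTGGCGC, or TTTCGCGC) stood in 18 of 35 (51.4%), against 3.85% of all. Replication-dependent histone promoters held the CCAAT box of NF-Y in 37 of 43 (86.1%, against 36.2%) and the TATA box (TATAAA) in 30 of 43 (69.8%, against 9.71%). Among all genes with 1000 counts or more, the CHR element stood in 17.5% of lower, 7.64% of higher, and 9.74% of the other promoters, and the E2F site in 9.59%, 1.04%, and 4.32%. These are matches of letters and do not show that a factor was bound.

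For each of these motifs the promoter that held it with the largest absolute ratio among list members of 1000 counts or more is shown 5′ to 3′, with the motif in capitals. These are *SGO1* for the CHR element, *GINS2* for the E2F site, *H1-5* for the CCAAT box, and *H2AC4* for the TATA box.
*SGO1* (chr3:20186157-20186456, minus strand): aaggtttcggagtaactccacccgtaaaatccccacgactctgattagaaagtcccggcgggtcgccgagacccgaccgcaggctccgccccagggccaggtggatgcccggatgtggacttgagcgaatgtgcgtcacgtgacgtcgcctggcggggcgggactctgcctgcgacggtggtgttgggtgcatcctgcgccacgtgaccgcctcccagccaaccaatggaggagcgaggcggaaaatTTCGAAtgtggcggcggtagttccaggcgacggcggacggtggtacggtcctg
*GINS2* (chr16:85688905-85689204, minus strand): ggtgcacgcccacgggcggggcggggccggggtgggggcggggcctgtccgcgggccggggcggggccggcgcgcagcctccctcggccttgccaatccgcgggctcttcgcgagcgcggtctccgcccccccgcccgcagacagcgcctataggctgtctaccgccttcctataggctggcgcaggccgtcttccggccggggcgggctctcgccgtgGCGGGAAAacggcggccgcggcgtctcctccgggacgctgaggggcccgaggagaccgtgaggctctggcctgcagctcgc
*H1-5* (chr6:27867539-27867838, minus strand): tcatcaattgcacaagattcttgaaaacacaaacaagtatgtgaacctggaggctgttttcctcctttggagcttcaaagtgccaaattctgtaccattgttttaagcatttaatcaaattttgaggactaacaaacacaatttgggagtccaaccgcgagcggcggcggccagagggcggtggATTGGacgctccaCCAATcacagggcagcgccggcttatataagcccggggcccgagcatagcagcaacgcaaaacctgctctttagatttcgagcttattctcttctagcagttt
*H2AC4* (chr6:26033569-26033868, minus strand): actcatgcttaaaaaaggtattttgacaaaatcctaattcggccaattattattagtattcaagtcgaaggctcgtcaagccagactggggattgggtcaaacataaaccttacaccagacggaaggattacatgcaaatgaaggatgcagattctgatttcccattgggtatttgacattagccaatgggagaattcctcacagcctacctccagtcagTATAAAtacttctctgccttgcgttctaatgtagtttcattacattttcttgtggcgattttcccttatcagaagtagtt
The CHR element of *SGO1* began 3 bases before the start, the E2F site of *GINS2* 31 bases before it, and the CCAAT boxes of *H1-5*, of which the first lies on the opposite strand, 66 and 53 bases before it. The TATA box of *H2AC4* began 30 bases before the start.

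The brakes of the cell cycle moved both ways. Of 20 CDK inhibitors and genes of the RB family, 3 were higher and 7 lower. *CDKN1A*, the gene of p21 that blocks CDK2, had 8181 and 25541 counts (log2 ratio 1.90, 1.86 to 1.93), and *CDKN2B*, the CDK4 and CDK6 inhibitor p15, had 594 and 1810 (1.86). *CDKN1C* was higher at low counts (66 and 230). The genes that fell most in this list, *E2F8* (-3.78), *E2F1* (-2.71), and *E2F7* (-2.65), are E2F factors, which are E2F targets themselves. *RB1* had 9959 and 5754 counts (-0.54). Of 9 cyclins and CDKs of the phase before DNA synthesis, 4 were lower, among them *CDK2* (2132 and 90 counts, -4.30) and *CDC25A* (-3.47). *CCND1* had 8479 and 12374 counts (0.80), and *CCND2*, the only higher gene of the list, had 4 and 66 counts, below the olfactory receptor level.

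The p53 target list as a whole sat at a median of -0.01, or 0.39 with upper-quartile scaling, with 4 of 28 genes higher and 2 lower. The higher genes were *CDKN1A*, *GDF15* (2521 and 6926 counts, log2 ratio 1.71), a secreted stress factor, *GADD45A* (2200 and 4416, 1.26), and *MDM2*, the ligase that degrades p53 (22833 and 41938, 1.13). *DDB2* (-1.32) and *AEN* (-1.02) were the lower ones, though not under upper-quartile scaling. Regulators of cell death mostly stayed within 2-fold, as most genes did. Of 14 BCL2 family genes, 1 was higher and 2 lower (7.14% and 14.3%, against 23.0% and 14.2% of all genes). With 1000 counts or more these shares were 10.0% and 20.0%, against 4.31% and 19.1% of all such genes. *BAK1*, a pore-forming killer, was higher (1501 and 2570 counts, 1.03), and *BOK* (-1.85) and the survival gene *BCL2* (1640 and 578, -1.25) were lower.

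DNA repair genes fell by pathway to different extents. Of 30 genes of homologous recombination and crosslink repair, which use the copied sister as template, 22 were lower and none was higher, with a median of -2.56. Other scales left as few as 18 lower. *EXO1*, the nuclease that widens DNA ends, went from 4560 to 51 counts (log2 ratio -6.21), *BLM* from 3026 to 55 (-5.51), and *BRCA1* from 9323 to 512 (-3.93). *RAD50* (-0.08), *SLX4* (-0.11), and *CHEK1* (5530 and 3347 counts, -0.47) were not called. End joining and break signalling fell less, with 12 of 20 lower and a median of -1.15. *PRKDC*, the kinase of end joining, had 110063 and 32532 counts (-1.50), and *XRCC5* and *XRCC6*, which form the Ku ring, had log2 ratios of -1.24 and -1.33. *TDP2*, which removes trapped topoisomerase II from DNA ends, had 3618 and 4843 counts (0.68, not called), and *LIG4*, which seals them, had 2205 and 2398 (0.38). With library totals or upper-quartile scaling the end-joining list lost many calls, down to 5 of 20 lower genes.

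The drug targets themselves differed. *TOP2A*, the topoisomerase II of dividing cells and target of doxo and eto, had 78464 and 2154 counts (log2 ratio -4.93, -4.99 to -4.87), while *TOP2B*, its form in resting cells, had 21599 and 8919 (-1.02, within 2-fold under the other scales). *TOP1* had 29615 and 18448 counts (-0.43). Of 15 tubulin genes, 5 were lower. *TUBB* (74349 and 17166 counts, -1.86) and *TUBB6* (21754 and 5045, -1.85) fell, whereas *TUBA1A*, the most abundant, had 306443 and 149233 (-0.78) and *TUBB4A* had 1963 and 3181 (0.95). *TUBA4A* rose at low counts (34 and 133, 2.21).

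Of 15 genes linked to drug efflux, 7 were higher, 2 of them above the olfactory receptor level, and none lower. Only *MVP*, which encodes the major vault protein and not a transporter, was higher with over 1000 counts (2816 and 7967, log2 ratio 1.76). *ABCC3*, an exporter of conjugates, rose from 157 to 806 counts (2.61). *ABCB1*, the P-glycoprotein that exports all 3 drugs, had no count before and 69 after treatment, at least 27.4-fold more against a floor of 3 counts, and its 10.7 counts per kilobase lay below the olfactory receptor level. *ABCB4* (2 and 67 counts) and *ABCA1* (18 and 287) also lay below it. The abundant *ABCC1* (19293 and 17057 counts, 0.08) and *ABCC4* (21601 and 11049, -0.71) were not called.

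Genes linked to the nuclear lamina and senescent chromatin fell in part. Of 20 such genes, 11 were lower and 1 was higher. *LMNB1*, the B-type lamin that is lost in senescent cells, had 32343 and 664 counts (log2 ratio -5.35, -5.46 to -5.24), and *HMGB2* had 33000 and 1133 (-4.61). *LMNA* had 73089 and 38222 counts (-0.68). *GLB1*, which encodes the lysosomal galactosidase used to stain senescent cells, was the higher gene (3105 and 6741 counts, 1.37). Among 26 Polycomb and DNA methylation genes, 6 were lower, 5 of them among the 23 with 1000 counts or more (21.7%, against 19.1% of all such genes), with *UHRF1* (-4.23), *EZH2* (7322 and 1013 counts, -2.60), and *DNMT1* (35802 and 6644, -2.17) foremost, and *PHF1* was higher (1803 and 3166, 1.07). Of 27 SWI/SNF genes, 6 were lower (2 under upper-quartile scaling), all among the 23 with 1000 counts or more (26.1%, against the same 19.1%), led by *ACTL6A* (-1.60). *SMARCA2*, the alternative ATPase, went from 13 to 378 counts (log2 ratio 5.06, 4.33 to 6.04), with *DPF3* (27 and 292) and *ACTL6B* (4 and 58) the other higher genes, and all 3 lay below the olfactory receptor level.

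Many genes of the antioxidant response rose. NRF2 drives genes for glutathione and thioredoxin supply, detoxification, and iron binding. Of 27 NRF2 targets, 12 were higher and none lower, with a median of 0.76, and all 12 were above the olfactory receptor level. *HMOX1*, which degrades heme, went from 2550 to 20971 counts (log2 ratio 3.29, 3.24 to 3.35), and *GCLC*, the rate-limiting enzyme of glutathione synthesis, from 2185 to 13850 (2.92, 2.85 to 2.98). *AKR1B10*, an aldo-keto reductase, had 16 and 501 counts (5.18). The aldo-keto reductases *AKR1C1* (3362 and 20414 counts) and *AKR1C2* (1781 and 10502) are so alike that reads may have been split between them. *NQO1* stayed level (67043 and 57291 counts, 0.03, 0.01 to 0.04), as did *TKT* (67816 and 61689, 0.12), and *UGDH* and *TALDO1* had the lowest ratios (-0.59 and -0.53).

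Of the ferritin genes, *FTL*, the light chain, passed 2-fold with 45626 and 122307 counts (log2 ratio 1.68), whereas *FTH1*, the heavy chain, had 50066 and 75048 (0.84). Of 14 genes of iron handling, 4 were higher, of which *TF* and *SLC40A1* lay below the olfactory receptor level, and *STEAP3*, the endosomal iron reductase, was lower (2716 and 1060 counts, -1.10). The receptor gene *TFRC* stayed within 2-fold (48095 and 32205, -0.32). The metallothionein genes *MT2A* (0.01) and *MT1X* (-0.68), the only members of that family with 50 counts, were not called. The antioxidant response element core (TGACNNNGC, which an AP-1 site followed by GC also holds) stood in 4 of 20 NRF2 target promoters (20.0%), against 14.2% of all promoters.

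Lysosome and autophagy genes rose in part. Of 40 genes, 14 were higher and none lower, with a median of 0.82, and 12 of the 14 had 1000 counts or more. Under upper-quartile scaling, 24 were higher. *GABARAPL1*, an ATG8 protein of autophagosomes, went from 345 to 3196 counts (log2 ratio 3.46, 3.31 to 3.63), and *CTSA*, a protective lysosomal carboxypeptidase, from 5459 to 18203 (1.99). *SQSTM1*, the cargo receptor that is also an NRF2 target, had 20193 and 52441 counts (1.63), and *PSAP*, the precursor of the saposins, had 48739 and 116398 (1.51). *LAMP1* was just past 2-fold (16503 and 27787, 1.01). *TFEB*, a regulator of these genes, had 254 and 203 counts (-0.07), and *ATG7* the lowest ratio (-0.43). The E box CACGTG stood in 8 of 30 promoters of the list (26.7%), against 8.76% of all.

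The promoters of *CTSA*, which held 2 E boxes, and *TXNRD1*, which held the antioxidant core on both strands, are shown by the same rule, again with matches in capitals.
*CTSA* (chr20:45891085-45891384, plus strand): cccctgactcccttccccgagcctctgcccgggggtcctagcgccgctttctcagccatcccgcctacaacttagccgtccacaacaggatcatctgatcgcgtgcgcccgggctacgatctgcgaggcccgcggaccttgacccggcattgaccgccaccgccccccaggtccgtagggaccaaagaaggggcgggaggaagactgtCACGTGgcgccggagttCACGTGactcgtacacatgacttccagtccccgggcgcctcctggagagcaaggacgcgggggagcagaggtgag
*TXNRD1* (chr12:104215529-104215828, plus strand): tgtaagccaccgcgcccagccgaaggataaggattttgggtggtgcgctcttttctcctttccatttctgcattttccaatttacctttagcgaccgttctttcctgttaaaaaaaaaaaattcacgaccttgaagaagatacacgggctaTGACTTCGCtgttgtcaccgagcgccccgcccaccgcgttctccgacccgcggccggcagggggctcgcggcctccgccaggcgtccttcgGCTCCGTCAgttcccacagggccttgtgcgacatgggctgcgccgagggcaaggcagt
*TXNRD1*, a thioredoxin reductase, had 25503 and 48127 counts (log2 ratio 1.17).

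Stress of the endoplasmic reticulum and of amino acid supply gave no common direction. Of 25 ATF4 and ER stress targets, 4 were higher and 5 lower. *DDIT3*, the gene of CHOP, had 294 and 1012 counts (log2 ratio 2.04), *ATF3* 915 and 2437 (1.67), and *DNAJB9* 1018 and 2603 (1.61). The lower genes included those of serine synthesis, *PHGDH* (4955 and 617 counts, -2.75) and *PSAT1* (-1.39), and the amino acid importer *SLC7A5* (12938 and 3219, -1.75). Of 20 heat shock genes, 4 were higher and 2 lower (20.0% and 10.0%). The abundant chaperones *HSP90AA1* (512908 and 209898 counts, -1.03) and *HSPD1* (-1.11) were just past 2-fold under TMM and not under library totals or upper-quartile scaling, and *HSPA8* had 281836 and 156048 (-0.60). The small chaperones *CRYAB* (20 and 456 counts, 4.73) and *HSPB8* (6 and 129, 4.57) rose from almost nothing.

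Genes of cholesterol synthesis fell as a group. Of 21 genes of synthesis and uptake, 16 were lower and 1 higher, with a median of -1.89. Other scales left as few as 13 lower. *INSIG1*, the sterol sensor's retention factor, had 9192 and 950 counts (log2 ratio -3.02), and *STARD4*, a sterol carrier, had 1301 and 117 (-3.21). Of 20 genes of fatty acid synthesis and storage, 5 were lower, including *FASN*, the fatty acid synthase (67072 and 16007 counts, -1.81), and *ELOVL6*, an elongase (8458 and 1114, -2.67). *SCD*, the desaturase, had 84605 and 94308 counts (0.41). The higher genes *LPL* and *PPARG* had 109 and 74 treated counts, and *PPARG* lay below the olfactory receptor level.

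Glycolysis fell in part. Of 21 genes, 10 were lower and none higher, with a median of -0.59. Other scales left as few as 6 lower. *PFKP*, a phosphofructokinase, had 14011 and 1647 counts (log2 ratio -2.83), *ALDOC* 1406 and 139 (-3.08), and *ENO1* 129511 and 40451 (-1.42). *PKM*, the most abundant, had 185986 and 188703 counts (0.28), and *GAPDH* had 169913 and 96658 (-0.56). Hypoxia targets shared some of these genes and gave no common direction, with 2 of 19 higher and 4 lower. *ANKRD37* (481 and 51 counts, -2.97) and the glucose importer *SLC2A1* (2452 and 633, -1.70) fell, and *NDRG1* rose (134 and 500, 2.15).

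Respiratory chain genes separated by genome. The 13 genes encoded in mitochondrial DNA took 3.59% of counts before and 10.5% after treatment, and 8 of 13 were higher with a median of 1.17. *MT-ND6*, the only one of them on the light strand, went from 63399 to 253231 counts (log2 ratio 2.25, 2.24 to 2.27), and *MT-CYB* from 193664 to 615882 (1.92). *MT-CO1*, the most abundant gene of both libraries, had 723148 and 1059465 counts (0.81), and *MT-CO3* had 195012 and 195971 (0.26). By complex, the 7 complex I genes ranged from 1.05 to 2.25, the 3 complex IV genes from 0.26 to 0.83, and the 2 complex V genes from 0.35 to 0.84. The complex I range did not overlap those of complexes IV and V, and *MT-CYB*, of complex III, lay within it. All 13 ratios were above 0. Of 52 nuclear genes for subunits of the same complexes, 7 were lower (2 under upper-quartile scaling) and none higher, with a median of -0.68. This share of lower genes was no larger than elsewhere, at 13.5% against 14.2% of all genes. Among genes with 1000 counts or more it was 14.9% against 19.1%. *CYC1*, cytochrome c1, had 11190 and 3127 counts (-1.58), *UQCRC1* 16974 and 5946 (-1.26), and *NDUFV2* the highest ratio (465 and 616, 0.66). The median of all genes with 1000 counts or more was -0.40.

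**Figure D3:**
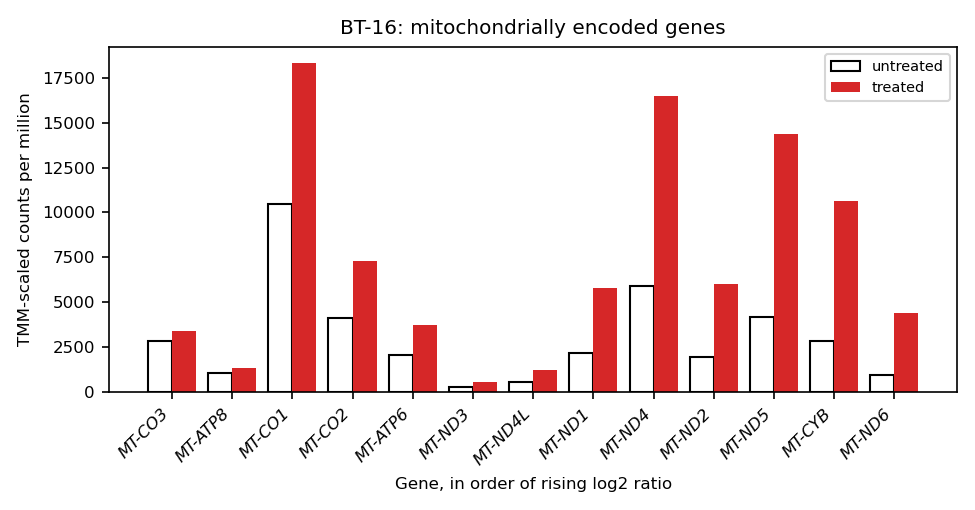
TMM-scaled CPM (vertical axis) of the 13 mitochondrially encoded genes in untreated (white) and treated (red) BT-16 cells, ordered by log2 ratio. The treated bar is the higher in all 13, from a log2 ratio of 0.26 for *MT-CO3* to 2.25 for *MT-ND6*.

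Genes of translation and protein turnover had medians somewhat below that of all well-counted genes. With 1000 counts or more, the median of all genes was -0.40. It was -0.73 for ribosomal proteins, -0.75 for ribosome biogenesis, and -0.55 for the proteasome. Shares of lower genes were 9.46%, 27.3%, and 10.3%, against 19.1% of all such genes. Of 75 cytosolic ribosomal protein genes, 7 were lower and none higher, with a median of -0.73 and a narrow range from *RPS28* (log2 ratio -1.37) to *RPL12* (-0.20). All 7 lost the call under upper-quartile scaling. Of 34 genes of ribosome biogenesis, 9 were lower (2 under upper-quartile scaling), among them *FBL*, the rRNA methyltransferase (10022 and 2046 counts, -2.04), *NPM1* (190491 and 68430, -1.22), and *NCL* (223246 and 82511, -1.18). *RRP12* had the highest ratio (6139 and 9102, 0.82). Of 33 proteasome genes, 3 were lower, led by *PSMC3* (-1.16), and the immunoproteasome gene *PSMB9* was higher at 14 and 57 counts, below the olfactory receptor level. In the MYC network, *MXD1*, a MYC antagonist, rose (721 and 2457 counts, 2.02), *MAX*, the partner of both, was just past 2-fold (3581 and 6045, 1.01), and *MXD3* fell (2082 and 187, -3.22). *MYCN* had no count before and 58 after treatment, below the olfactory receptor level. Of 18 housekeeping genes, 5 were lower, including *ACTB* (328441 and 102954, -1.42).

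The 15 highest ratios among genes with 1000 counts or more spanned synaptic, secreted, and epithelial genes. *MDGA1*, which binds neuroligins and limits synapse formation, had 91 and 4654 counts (log2 ratio 5.92, 5.63 to 6.25), or 60.7-fold more. *JAG1*, a Notch ligand, had 83 and 3478 (5.64, 5.33 to 5.98). *VGF*, a secreted neuropeptide precursor, had 52 and 1748 (5.31). The next were *ATP12A*, a proton pump (40 and 1167 counts, 5.10), *SOST*, the secreted Wnt antagonist sclerostin (44 and 1179, 4.98), *NPTX2*, a synaptic pentraxin (120 and 2845, 4.82), and *PLK2*, a stress-induced Polo-like kinase (56 and 1302, 4.78). All 15 genes stood above the olfactory receptor level.

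The other genes among the 15 were *NR4A3*, *MUC4*, *KCNMA1*, *CD24*, *DSP*, *SERPINI1*, *TCHH*, and *PLA2G4C*. *MUC4*, a membrane mucin, had 133 and 2729 counts (log2 ratio 4.61), and *KCNMA1*, a calcium-gated potassium channel, had 65 and 1320 (4.59), at 33.5 counts per kilobase the nearest of the 15 to the olfactory receptor level. *CD24*, a surface sialoglycoprotein with near-identical copies, had 62 and 1199 (4.52). *DSP*, the desmoplakin that anchors filaments at desmosomes, was by far the most abundant of the 15, with 1725 and 30625 counts (4.40, 4.33 to 4.48). *PLA2G4C*, a phospholipase, closed the list (126 and 1336, 3.66).

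**Figure D4:**
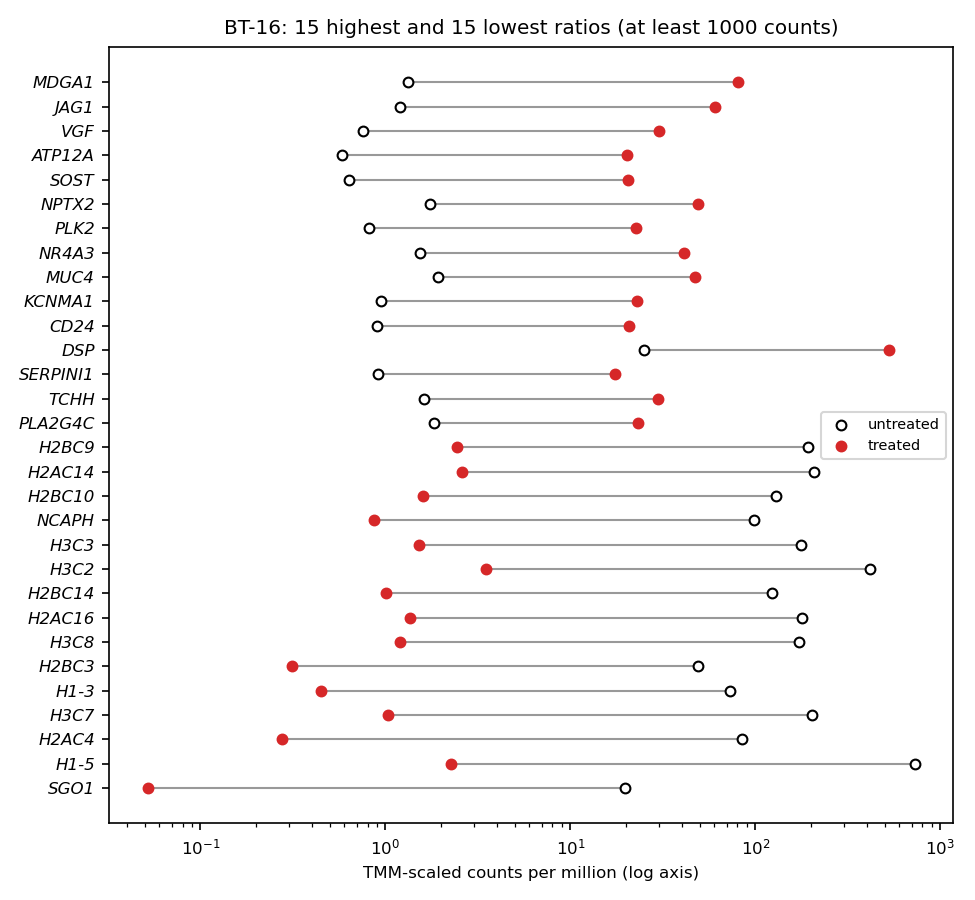
TMM-scaled CPM on a log axis (horizontal) of the 15 genes with the highest and the 15 with the lowest log2 ratio among genes with 1000 counts or more, in untreated (open) and treated (red) BT-16 cells. *DSP* stands out among the higher genes by its level after treatment, and 13 of the 15 lower genes are histone genes.

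Epithelial genes rose in part at levels clear of the background. Of 23 keratin and epithelial genes, 17 were higher and none lower, with a median of 2.28, and 11 of the 17 were above the olfactory receptor level. *KRT8*, a keratin of simple epithelia, had 19569 and 42198 counts (log2 ratio 1.36) and its partner *KRT18* 3759 and 6634 (1.07). *KRT15* had 108 and 1142 (3.65), and *MUC1*, the gene of epithelial membrane antigen, 2299 and 4613 (1.26). For this antigen the paper reports less stained area in BT-16 cells after treatment. Staining measures protein, and its difference from the RNA was not tested. *KRT14*, of basal epithelia, had no untreated count and 122 after treatment, at least 48.5-fold more against 3 counts. *TJP1* (17212 and 13066 counts, -0.14), *OCLN* (-0.54), and *KRT10* (-0.68) were not called.

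Fewer mesenchymal than epithelial genes rose at high counts. Of 16 mesenchymal genes, 7 were higher (43.8%, against 23.0% of all genes) and none lower. With 1000 counts or more, 1 of 7 was higher (14.3%) and none lower, with a median of -0.33. That compares with 5 of 9 epithelial genes (55.6%) and 4.31% of all such genes, whose median was -0.40. The abundant members *VIM* (110119 and 73439 counts, log2 ratio -0.33), *CDH2* (35064 and 17441, -0.75), *PRRX1* (26884 and 13275, -0.76), and *S100A4* (20297 and 9545, -0.83) were within 2-fold. Of the higher genes only *FN1* (486 and 1314, 1.69) and *SNAI2* stood above the olfactory receptor level. *SNAI2*, a repressor of epithelial genes, had no untreated count and 218 after treatment, at least 86.7-fold more against 3 counts.

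Most matrix genes that rose were counted little, and of all genes with fewer than 1000 counts, 52.0% were higher. Of 33 collagens, 23 were higher and 1 lower, with a median of 2.77, but 9 of the 23 stood above the olfactory receptor level and the 8 collagens with 1000 counts or more had a median of 0.33. *COL7A1*, of anchoring fibrils, rose from 543 to 3286 counts (log2 ratio 2.85), *COL5A1*, the most abundant, had 30520 and 29916 counts (0.23), and *COL1A2* fell (408 and 103, -1.73). *COL3A1* and *COL21A1* had no untreated count, and 66 and 83 counts after treatment, below the olfactory receptor level. Of 31 glycoproteins and proteoglycans, 16 were higher and 1 lower (51.6% and 3.23%, against 23.0% and 14.2% of all genes). *SPP1*, the secreted osteopontin, was the most abundant to rise (3633 and 22130 counts, 2.86). Only 4 of these 16 stood above the olfactory receptor level. The lower gene, *FBN2*, which encodes the microfibril protein fibrillin-2, was among the most abundant of untreated cells, with 349601 counts before and 89472 after treatment (-1.71, -1.72 to -1.70). *HSPG2*, perlecan, had 52335 and 48409 counts (0.14). *SPARC* had none before and 120 after treatment, below the olfactory receptor level.

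Of 29 laminins and integrins, 15 were higher and 2 lower (51.7% and 6.90%, against 23.0% and 14.2% of all genes). With 1000 counts or more, 1 of 13 was higher and 2 lower (7.69% and 15.4%, against 4.31% and 19.1% of all such genes). The higher one was *ITGA7* (5558 and 10339 counts, log2 ratio 1.15). Only 4 of the 15 stood above the olfactory receptor level. *ITGAV*, the vitronectin receptor chain, had 39507 and 62442 (0.92), *LAMC1* 146004 and 92575 (-0.40), and *ITGB5* 3913 and 1181 (-1.47). Among 27 matrix proteases and inhibitors, 16 were higher, 9 of them above the olfactory receptor level, and none lower. *ADAMTS4* (8 and 336 counts, 5.56) was higher above the olfactory receptor level, and *TIMP2* (30378 and 22958, -0.15) and *ADAM9* (38677 and 29694, -0.13) were within 2-fold.

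Signalling genes changed gene by gene. Of 27 Notch genes, 9 were higher and 5 lower (33.3% and 18.5%, against 23.0% and 14.2% of all genes), with 4 of the 9 above the olfactory receptor level. Beside the ligand *JAG1*, the receptors *NOTCH3* (30695 and 25873 counts, log2 ratio 0.01) and *NOTCH2* (16170 and 11708, -0.21) were within 2-fold, while the targets went both ways, with *HES6* (1124 and 164, -2.52) and *NRARP* (924 and 215, -1.85) lower and *HES2* (1186 and 2358, 1.25) and *HEY2* (4 and 112, 4.90) higher. Of 45 Wnt genes, 18 were higher, 8 of them above the olfactory receptor level and none with 1000 counts. Another 6 were lower, among them the receptor genes *FZD2* (715 and 60, -3.31), *LRP5* (9777 and 2861, -1.52), and *LRP6* (57503 and 18784, -1.36). *FZD10* had no untreated and 112 treated counts. *CTNNB1*, beta-catenin, had 18184 and 8805 (-0.79).

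Of 43 receptor tyrosine kinases and ligands, 18 were higher, 8 of them above the olfactory receptor level, and 2 lower. *TGFA*, a ligand of EGFR, rose from 320 to 3065 counts (log2 ratio 3.51) and *IGF1R* from 8292 to 16592 (1.26). The lower genes were *FLT4*, the VEGFR3 gene (2563 and 287 counts, -2.90), and *PDGFC* (6783 and 2032, -1.48). *ERBB4* (48592 and 21811, -0.90) and *FGFR1* (16973 and 24836, 0.80) were the abundant members that came near the threshold. *MET* rose from a few counts (2 and 104), below the olfactory receptor level. Feedback genes of the MAPK pathway, which its own activity induces, rose in 6 of 17 with 1 lower. These shares were 35.3% and 5.88%, against 23.0% and 14.2% of all genes. With 1000 counts or more, 6 of 15 were higher (40.0%, against 4.31% of all such genes). *DUSP4*, a phosphatase of ERK, had 1309 and 4258 counts (1.96), *ERRFI1* 441 and 1217 (1.72), and *SPRY4* 12990 and 23207 (1.09). *DUSP7* fell (-1.11), and *DUSP6* was within 2-fold (2261 and 1032, -0.88).

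Immediate early factors moved in both directions, with more of them higher. Of 25 AP-1 and immediate early genes, 8 were higher and 2 lower (32.0% and 8.0%, against 23.0% and 14.2% of all genes). With 1000 counts or more, 5 of 15 were higher and 1 lower (33.3% and 6.67%, against 4.31% and 19.1% of all such genes). The orphan receptors *NR4A3* (106 and 2372 counts, log2 ratio 4.73, 4.46 to 5.03) and *NR4A2* (54 and 461, 3.34) and the pluripotency factor *KLF4* (49 and 307, 2.89) rose, while *EGR1* fell from 11311 to 1022 (-3.21, -3.31 to -3.12). *FOSL2* was the most abundant to rise (9403 and 20357, 1.37). Of 21 ETS factors, 7 were higher, all at low counts such as the 4 and 113 of *FLI1*, itself below the olfactory receptor level. Only 2 of the 7 stood above that level. *ETV2* was lower, with *ETV5* (12103 and 14319, 0.50) and *ETV1* (11869 and 11560, 0.22) within 2-fold. Of 40 genes of TGF-beta and BMP signalling, 11 were higher and 1 lower (27.5% and 2.5%, against 23.0% and 14.2% of all genes). *FST*, which traps activin (12 and 588 counts, 5.81), rose, *SMAD9* fell (2053 and 670, -1.36), and *TGFB2* (12047 and 11423, 0.18) and *ID3* (21282 and 11871, -0.59) were within 2-fold. Of 18 YAP and TEAD genes, 5 were higher and 2 lower (27.8% and 11.1%, against the same 23.0% and 14.2%). *WWTR1*, the gene of TAZ, was higher (2757 and 6686, 1.53), *TEAD4* lower (1599 and 251, -2.41), and *CCN1* within 2-fold (43364 and 30467, -0.25).

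Immune genes showed few changes at high counts. Of 35 interferon-stimulated genes, 16 were higher and 5 lower, and 5 of the 16 stood above the olfactory receptor level. The lower ones included *IFITM2* (5424 and 1205 counts, log2 ratio -1.91) and *IFITM3* (9425 and 3153, -1.32), which block viral entry, and *OAS3* (973 and 256, -1.67). *RSAD2* and *OASL* had no untreated count and 90 and 89 after treatment, below the olfactory receptor level. *BST2*, which tethers budding virus, had 21044 and 14911 counts (-0.24). Of 18 genes of MHC class I presentation, 6 were higher and 1 lower. *TAP1*, the peptide transporter, had 1174 and 2550 counts (1.37), and *CALR*, calreticulin, had 127328 and 40152 (-1.41). The class I genes are alike and were counted little, as with *HLA-C* at 28 and 115 counts (2.27, 1.69 to 2.94).

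Of 17 NF-kB genes, 5 were higher (29.4%, against 23.0% of all genes), including *TNFAIP3*, which damps the pathway (374 and 841 counts, log2 ratio 1.42). *IL1B* was lower (64 and 9, -2.51). Of 13 secreted factors of senescent cells with 50 counts or more, 9 were higher and 1 lower, with a median of 1.71. Beside *GDF15*, *IGFBP3*, which binds insulin-like growth factors, rose from 1839 to 6125 counts (1.99). *CCL2* (8 and 134 counts, 4.24) and *STC1* (none and 114) were at low levels, and *FGF2* (24427 and 18156, -0.17) and *SERPINE2* (4044 and 2928, -0.21) were within 2-fold. The other 18 of the 31 listed factors had fewer than 50 counts in both libraries. Of 19 S100 and annexin genes, *S100A9* (none and 250 counts, at least 99.4-fold more against 3 counts) and *ANXA8* (none and 52, below the olfactory receptor level) rose, *ANXA1* fell just past 2-fold (37665 and 15777 counts), and *S100A6* (70498 and 63117, 0.10) was within 2-fold.

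Neural genes gave many rises below 1000 counts, where 52.0% of all genes were higher, and few elsewhere. Of 60 axon guidance genes, 26 were higher, 12 of them above the olfactory receptor level, and 5 lower. These shares were 43.3% and 8.33%, against 23.0% and 14.2% of all genes. With 1000 counts or more, 1 of 22 was higher and 4 lower (4.55% and 18.2%, against 4.31% and 19.1% of all such genes). *EFNA2*, an ephrin, fell from 183 to 4 counts (log2 ratio -5.09), *SEMA3F* from 1695 to 420 (-1.76), and *SLIT2*, an abundant repellent, from 102320 to 42688 (-1.01). *EPHB6* rose (2 and 236, 6.82). Of 30 synaptic and neuronal adhesion genes, 17 were higher and 1 lower, with a median of 2.85 that became -0.04 over the 15 above the olfactory receptor level. *CADM2* fell (20801 and 7861, -1.15) and *CADM1* (104968 and 49806, -0.82) was within 2-fold, whereas *NCAM1* (none and 129) and *PTPRD* (1 and 213) lay below that level. Of 21 neuronal and progenitor genes, 11 were higher, 4 of them above the olfactory receptor level, and none lower. *SOX9*, a factor of glial progenitors, had 6 and 520 counts (6.58, 5.56 to 8.15) at 132 counts per kilobase, while the abundant *SOX2* (26819 and 13999, -0.68), *NES* (51379 and 29046, -0.57), and *SOX4* (26816 and 19916, -0.17) were within 2-fold.

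Of 39 HOX genes, 12 had 50 counts or more, none reached 1000, and 8 were higher and 1 lower. *HOXC9* had 330 and 298 counts (log2 ratio 0.11), *HOXB9* 12 and 202 (4.27), and *HOXB4* 86 and 30 (-1.25, -1.92 to -0.65). Genes that mark the AT/RT subgroups were few. Of 6 AT/RT-MYC genes with 50 counts or more, 3 were higher, and beside *MYC* the receptor *ERBB2* was within 2-fold (14978 and 8118 counts, -0.63). Of 5 AT/RT-TYR genes, 4 were higher, at 202 counts or fewer, and of 9 AT/RT-SHH genes, 3 were higher and 2 lower. Of these higher genes, 1 of the AT/RT-TYR list and 0 of the AT/RT-SHH list stood above the olfactory receptor level.

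Markers of other cell types were low in both libraries. Of 38 marker genes of macrophages, monocytes, dendritic cells, T and B cells, endothelium, pericytes, fibroblasts, and astrocytes, 10 were at 0 counts in untreated and 2 in treated cells. Their summed level was 24.5 TMM-scaled CPM (counts scaled to library size) before and 68.2 after treatment. Of the 20 with 50 counts or more, 14 were higher, 3 of them above the olfactory receptor level, and none lower. This share of 70.0% compares with 23.0% of all genes and 52.0% of those with fewer than 1000 counts. The macrophage genes *C1QB* and *C1QC* had no count before and 32 and 40 after treatment, and *CD68* had 3 and none. Of those with 50 counts, *PTPRC*, of all white blood cells, had 287 and 167 counts (log2 ratio -0.52), and *VWF*, of endothelium, had 45 and 405 (3.41).

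The study also named programs of tumor cell states, and these lists were read in the same way. Of 49 genes of the cell cycle program, 41 were lower and 1 higher, with a median of -3.30. The partial EMT (pEMT) program had 24 of 95 genes higher and 10 lower with a median of 0.13, the metabolic and OXPHOS program 21 of 73 higher and 10 lower with a median of 0.19, and the interferon response program 20 of 62 higher and 5 lower with a median of 0.43. These shares of higher genes were 25.3%, 28.8%, and 32.3%, against 23.0% of all genes. Over genes with 1000 counts or more the medians were 0.05, 0.04, and 0.14, against -0.40 over all such genes, and 16 of 77, 12 of 53, and 6 of 36 genes were higher (20.8%, 22.6%, and 16.7%, against 4.31%). The same genes recur in several of them. *MKI67*, *LMNB1*, and *TOP2A* had the lowest ratios of the OXPHOS program, whose most abundant members *MT-ND4*, *MT-ND5*, and *MT-CYB* rose, and *FBN2* fell in the interferon response program. *MT-ND4* and *MT-CO2* were also among the most abundant members of the pEMT program. The shares of higher genes above include these mitochondrially encoded genes and were not computed without them.

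The changes were spread over the genome. Among genes with 1000 counts or more, chromosome medians lay between -0.51 on chromosome 22 and -0.26 on chromosome 10. The exception was mitochondrial DNA at 1.17. Genes of the sex chromosomes were not analysed here. By exon length, the median of these genes moved from -0.63 in the shortest of 4 equal classes to -0.25 in the longest. Set beside the CHLA-266 pair, which shares no library with BT-16, log2 ratios of the 8085 genes with 1000 counts or more in both lines had a Pearson correlation of 0.93, as a description across genes that share scaling and counting. Of 317 such genes that were higher in BT-16, 276 were also at least 2-fold higher in CHLA-266, and of 1523 lower genes, 1159 were also lower. Where the lines differ was not tested, as each had 1 library per condition.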

How the data were processed

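RNA of untreated and treated BT-16 cells was sequenced with paired ends after stranded, amplified library preparation from 10 ng. The submitters' processing notes name bcl2fastq 2.20, STAR, and hg38. The authors deposited estimated counts per gene symbol without normalization, and 5 fractional values, in 2 genes, were rounded here. The authors also deposited log2 values made by a variance-stabilizing transformation (VST), used here as an alternative only.

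Ratios were computed after TMM scaling over all 4 libraries (edgeR 4.0.16, R 4.3.3, factors 0.919 and 1.12) with 0.5 counts added, for genes with at least 50 counts in 1 BT-16 library. Intervals are exact Clopper-Pearson 95% intervals of the 2 counts. With 1 library per condition no test was run, and past 2-fold is a description. Exon lengths are from GENCODE 44 on hg38, for 18357 symbols. Ratios and intervals were tested on simulated data. Genes were named by rule: the 15 highest and lowest ratios at 1000 counts or more, the 3 highest, lowest, and most counted members of each list, the 10 most counted genes, the drug targets, and *SMARCB1*, *SMARCA4*, and *MYC*. Other list members and markers named were chosen after their values were seen. Genes and lists were chosen with earlier results of these data known. Alternatives were DESeq2 1.42.0 size factors, other scales, filters, thinning, and VST. Results of some genes are not reported here.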

Additional observations from a re-analysis of the deposited data

Results flagged for a closer look

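A few named genes passed 2-fold in opposite directions in the 2 cell lines. With 1 library per line and condition, this difference was not tested. *HLA-C* rose in BT-16 from 28 to 115 counts (log2 ratio 2.27), while it fell in CHLA-266 from 81 to 22 (-1.61). *GBP1*, an interferon-induced GTPase, fell in BT-16 from 371 to 112 counts (-1.47), while it rose in CHLA-266 from 10 to 50 (2.51). *HOXB4* fell in BT-16 from 86 to 30 counts (-1.25), while it rose in CHLA-266 from 36 to 90 (1.55). All are low counts.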

How the results depend on the processing

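No paired analysis was possible because BT-16 has 1 library per condition, and no library could be left out. Against 3228 higher and 1992 lower genes and a median log2 ratio of -0.11, DESeq2 size factors gave a median of -0.0061. Library totals gave 1260 lower genes and a median of 0.18, upper-quartile scaling 1044 and 0.29, and library totals without mitochondrially encoded genes 1047 and 0.29. Filters moved the higher count most. It was 5751 with 10 counts in 1 library (median 0.12), 6381 with no filter (0.18), 949 with 200 counts (-0.32), 1344 above the olfactory receptor level (-0.28), and 368 with 1000 counts (-0.40). With 10 counts in both libraries the median was -0.17. Differences of VST values, which shrink low counts, gave 1214 higher and 1195 lower genes and a median of -0.0051. At 4-fold, 2223 genes were higher and 502 lower.

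Of 1030 list medians under these settings, 68 changed sign, in 24 lists, and 17 of these did so with 1000 counts. In 6 of them the reported median was past 2-fold. Synaptic and neuronal adhesion became -0.042 above the olfactory receptor level and -0.065 with 1000 counts, matrix proteases -0.13, and neuronal and progenitor genes -0.17 with 1000 counts. AT/RT-MYC genes became -0.26 with 200 counts and -0.72 with 1000 counts. Of 7000 values of named genes, 1976 left the counting interval and 143 changed sign, none of them among the 4166 values of genes reported past 2-fold. The 1000-count filter and the scale without mitochondrially encoded genes were chosen after seeing the data. Depth limits low-count genes, whose intervals span several log2 units.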
